A study of Rattus norvegicus with 46 samples.

Results

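Genes for amino acid breakdown and the urea cycle were followed in liver and quadriceps muscle of rats given CagriSema, rats food-restricted to the same weight, and rats given vehicle. The set was a list of 45 gene symbols, and 43 of them named a row of the count table, which holds 32552 genes. Prodh and Aldh4a1 had no row under these symbols and are not analysed here. CagriSema is a drug pair: cagrilintide mimics amylin, a satiety hormone of the pancreas, and semaglutide mimics the gut hormone GLP-1. All rats are described as diet-induced obese (DIO) and all libraries carry the genotype WT, in the control groups too, so no lean group was compared. The sources used here give no strain, sex, age, dose or degree of food restriction. Bulk RNA sequencing gave 46 libraries. Liver had 8 Vehicle, 8 Weight matched and 7 CagriSema libraries, and the series' text gives 20 days of treatment for CagriSema and food restriction, with no duration stated for vehicle. Quadriceps had 7 Vehicle, 8 Weight matched and 8 CagriSema libraries, and no duration is stated for muscle. The labels do not say whether libraries of a group came from separate rats, and each p-value then rests only on the spread between libraries, which may be technical.

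Amino acids that are not needed for protein are broken down mainly in liver. Aminotransferases pass their nitrogen to glutamate, glutamate dehydrogenase releases it as ammonia, and the urea cycle turns ammonia into urea for excretion, while the carbon skeletons feed glucose and ketone body synthesis. Glucagon, glucocorticoids and dietary protein are known to raise many of these liver genes. Branched-chain amino acids are an exception, since their breakdown starts in muscle, which also makes glutamine to carry nitrogen away.

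Liver libraries held 9888858 to 15948219 counts each and quadriceps libraries 11462369 to 16525274. Values below are counts-per-million (CPM), with library sizes scaled by the trimmed mean of M-values within each tissue. CPM is not corrected for gene length, so levels are compared between groups and not between genes. Where a liver library has no count of a gene, a level of 0.188 to 0.303 CPM is still allowed, depending on the library. For quadriceps the level is 0.182 to 0.262 CPM (3 counts, counting error only, in both tissues). These levels use the library totals before scaling. Summed hepatocyte markers (11 genes) lay between 118096 and 223096 CPM in liver and between 36 and 120 CPM in quadriceps. Summed skeletal muscle fibre markers (11 genes) lay between 122674 and 227854 CPM in quadriceps and between 1.52 and 95.9 CPM in liver. Both tissues therefore carried their defining transcripts. Liver vehicle library 4 stood apart: it scored 134.2 on the leading principal component, which held 35.9% of the variance, with vehicle library 6 next at 39.1. Library 4 was the highest of the 8 vehicle livers for 26 of the 43 members and the lowest for 7. Its scaling factor was 0.742, the lowest of the liver libraries, and a low factor raises all CPM values of a library. Before scaling, the members made up 2.49% of its counts, within the vehicle range of 1.97 to 2.68%. Results that lost their call without libraries 4 and 6 are named where they are given. Differences between groups are log2 fold changes ± SE, and adjusted p-values come from edgeR's quasi-likelihood F test with Benjamini-Hochberg adjustment over all genes tested in that tissue. A gene was called where the adjusted p was under 0.05.

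Of the 43 members, 12 changed in liver between weight-matched and vehicle rats: 11 were lower and 1 was higher after food restriction. They included the enzyme of kynurenine cleavage (Kynu), ornithine aminotransferase (Oat), alanine-glyoxylate aminotransferase (Agxt), serine dehydratase (Sds), homogentisate dioxygenase (Hgd) and cytosolic aspartate aminotransferase (Got1), and the fitted falls ranged from 1.18-fold for Amt to 3.41-fold for Sds. The 12 calls are 27.9% of the members. Across the 12702 genes tested in the same comparison 7.02% were called, 4.53% lower and 2.49% higher. The members' median log2 fold change was -0.13, beside -0.01 over all genes tested, with 10 members positive and 33 negative. In CagriSema livers 1 member, Kynu, passed the test against vehicle, which is 2.33% of the members beside 0.354% of all genes tested. The members' median there was -0.24, beside -0.02 over all genes tested, with 8 members positive and 35 negative. An unadjusted p under 0.05 was found for 17 members (39.5%), beside 17.8% of all genes. After food restriction it was found for 16 members (37.2%), beside 24.4% of all genes. No member passed the edgeR test between CagriSema and weight-matched livers, where 0.535% of all genes were called. In that comparison 11 members (25.6%) had an unadjusted p under 0.05, beside 10.6% of all genes, and DESeq2 called 2 members and 1.58% of all genes. The comparisons share control libraries, so the values for each are given side by side below and their likeness is not read as evidence.

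**Figure D1:**
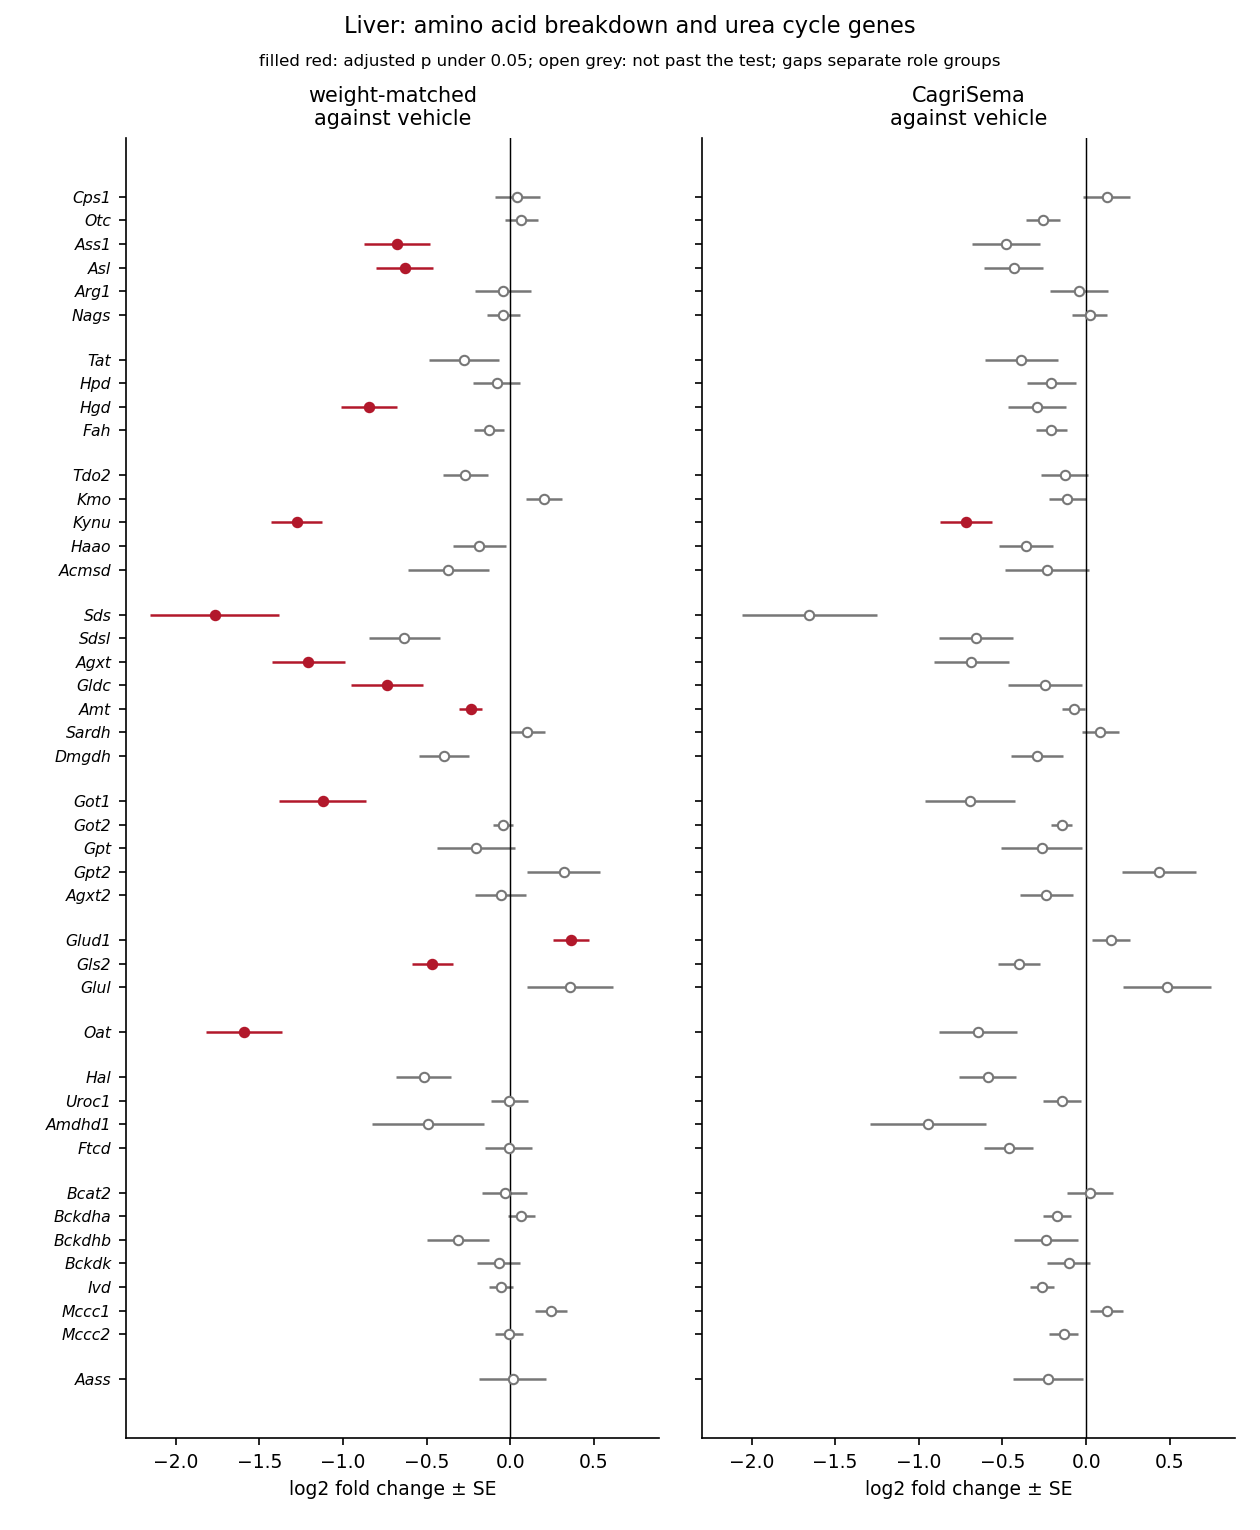
Log2 fold change ± SE (horizontal axis) of the 43 members in liver, grouped by role, for weight-matched against vehicle (left) and CagriSema against vehicle (right); filled red points passed the adjusted p of 0.05. There are 12 filled points on the left, 11 of them below 0, and 1 on the right.

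Promoter sequences are shown for Kynu, Oat and Agxt, the members with the smallest adjusted p in liver after food restriction, because these promoters belong to the genes on which the liver results turn. Each run is the 250 bases before the annotated start site, 5′ to 3′ on the gene's strand, from RefSeq on build GRCr8. Capitals mark complete matches to any of 7 short motifs searched on both strands. The general promoter motifs were TATAAA, known as the TATA box, and the CCAAT box, spelled by its name. For hormone signals the letters TGACG stood for the core of the cyclic AMP response element and AGAACA for a half-site of the glucocorticoid receptor. For liver factors the letters AGGTCA stood for the nuclear receptor half-site that HNF4 also uses, GTAAACA for forkhead factors and TTGCNNAA for C/EBP factors. Matches to different motifs were counted separately and may overlap, and a match describes letters and is not a binding site.
Kynu, chr3:48188036-48188285, plus strand: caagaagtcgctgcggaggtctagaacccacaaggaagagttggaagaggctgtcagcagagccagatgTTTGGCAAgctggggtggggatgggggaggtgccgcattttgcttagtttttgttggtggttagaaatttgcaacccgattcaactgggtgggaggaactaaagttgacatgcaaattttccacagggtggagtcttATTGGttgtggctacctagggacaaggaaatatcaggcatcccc
Oat, chr1:196797755-196798004, minus strand: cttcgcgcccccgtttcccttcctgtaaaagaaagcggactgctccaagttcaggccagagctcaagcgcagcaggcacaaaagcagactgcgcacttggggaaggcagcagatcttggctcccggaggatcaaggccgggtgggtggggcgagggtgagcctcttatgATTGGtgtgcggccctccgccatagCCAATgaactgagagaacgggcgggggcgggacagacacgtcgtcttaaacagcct
Agxt, chr9:101122543-101122792, plus strand: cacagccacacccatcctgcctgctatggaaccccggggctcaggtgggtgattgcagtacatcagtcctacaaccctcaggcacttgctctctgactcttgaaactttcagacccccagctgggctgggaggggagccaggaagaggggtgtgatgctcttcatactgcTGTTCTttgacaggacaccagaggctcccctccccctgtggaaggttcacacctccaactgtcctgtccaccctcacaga
Agxt, chr9:101127008-101127257, plus strand, other start site: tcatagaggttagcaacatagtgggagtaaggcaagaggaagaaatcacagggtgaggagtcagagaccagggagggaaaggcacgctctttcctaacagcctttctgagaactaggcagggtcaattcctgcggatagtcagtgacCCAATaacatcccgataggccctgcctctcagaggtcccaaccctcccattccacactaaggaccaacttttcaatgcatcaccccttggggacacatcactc
The Kynu stretch holds a C/EBP match and a CCAAT match on the opposite strand. Oat carries a CCAAT match on each strand, and the Agxt start sites carry a glucocorticoid half-site match and a CCAAT match respectively. RefSeq promoters were matched for 33 of the 43 members (37 promoters) and for 11 of the 12 called members (13 promoters), and none was matched for Sds. In windows of 300 bases (250 before the start site and 50 after), the CCAAT box was found in 51.4% of member promoters and 37.5% of all 33469 promoters, the nuclear receptor half-site in 24.3% and 16.2%, and the C/EBP motif in 13.5% and 10.6%. The TATA box was found in 13.5% of member promoters and 14.2% of all, the cyclic AMP element core in 13.5% and 21.2%, the glucocorticoid half-site in 10.8% and 20.7%, and the forkhead motif in 0% and 3.78%. Among the 13 promoters of called members, 8 held a CCAAT box, 1 a glucocorticoid half-site and 0 a forkhead motif, and each of the other motifs was in 2. The CCAAT box was the most frequent of the 7 motifs in member promoters and across all promoters.

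Ornithine aminotransferase, Oat (ENSRNOG00000016807), moves the amino group of ornithine to form glutamate and proline precursors, and in liver it is a pericentral enzyme. Its lowest, median and highest levels were 189, 295 and 543 CPM in vehicle livers, 59.4, 115 and 130 CPM in weight-matched livers, and 84.7, 191 and 301 CPM in CagriSema livers. Each of the 8 weight-matched libraries lay below every vehicle library, which held for 3 members (Oat, Kynu and Hgd, 6.98%) and in either direction for 0.811% of all genes tested, and 6 of 7 CagriSema libraries lay above the highest weight-matched one. Oat fell by 1.59 ± 0.23 on the log2 scale after food restriction (3.02-fold lower, adjusted p = 0.000782). The CagriSema difference from vehicle was -0.65 ± 0.23 (adjusted p = 0.179), and from weight-matched it was 0.95 ± 0.23 (adjusted p = 0.0594). That last difference passed the test when CagriSema library 34 was left out (1.09, adjusted p = 0.0231) and when vehicle libraries 4 and 6 were left out (adjusted p = 0.0240).

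Members of tryptophan breakdown, which runs through kynurenine towards NAD, were led by Kynu (ENSRNOG00000029993), the kynureninase that cleaves kynurenine and 3-hydroxykynurenine. Kynu had its lowest, median and highest levels at 59.0, 101 and 149 CPM in vehicle, 31.6, 40.9 and 48.3 CPM in weight-matched, and 48.8, 58.6 and 76.4 CPM in CagriSema livers. The weight-matched range lay wholly below both others, and the CagriSema range overlapped the lower part of the vehicle range, with 4 of 7 libraries below the lowest vehicle one. Kynu fell by 1.28 ± 0.15 in weight-matched livers (2.43-fold lower, adjusted p = 8.6e-05), the smallest adjusted p of any member. In CagriSema livers it fell by 0.72 ± 0.16 (1.64-fold lower, adjusted p = 0.0449). This second call held in 3 of 15 fits that left out 1 library each, those without vehicle library 2, 4 or 7, and the adjusted p ranged from 0.00976 to 0.105 over the 15. It was also lost without vehicle libraries 4 and 6 together (-0.55, adjusted p = 0.0902). CagriSema exceeded weight-matched by 0.56 ± 0.15 for Kynu (adjusted p = 0.110).

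The other members of the tryptophan route did not pass the test in any liver comparison. Tdo2, the dioxygenase that opens the indole ring, was at 1388 ± 340 CPM (SD, n = 8) in vehicle, 1152 ± 157 in weight-matched (n = 8) and 1271 ± 200 in CagriSema livers (n = 7). Kmo, which hydroxylates kynurenine, was at 306 ± 57.3, 352 ± 24.3 and 284 ± 41.4 CPM in the same order. Both enzymes act ahead of kynureninase, and unlike it neither passed the test. Haao was at 312 ± 133, 274 ± 26.4 and 243 ± 24.7 CPM. Acmsd, the decarboxylase that diverts carbon away from NAD synthesis, was at 9.60 ± 3.43, 7.47 ± 2.91 and 8.20 ± 2.65 CPM. Afmid, the kynurenine formamidase that is not a member, was the only gene to pass the test after food restriction among 45 tested other genes of the same pathways (0.44 ± 0.11, adjusted p = 0.0144), and it was higher.

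Among 4 members of phenylalanine and tyrosine breakdown, 1 fell after food restriction. Hgd (ENSRNOG00000002701) opens the aromatic ring of homogentisate. Its lowest, median and highest levels were 131.9, 178 and 395 CPM in vehicle, 91.4, 115 and 131.7 CPM in weight-matched, and 136, 165 and 220 CPM in CagriSema livers. The weight-matched libraries lay below all others by a narrow margin, 131.7 against 131.9 CPM at the edge, and all 7 CagriSema libraries lay above them. Hgd fell by 0.85 ± 0.17 after food restriction (1.80-fold lower, adjusted p = 0.00368), while the CagriSema differences were -0.30 ± 0.17 against vehicle (adjusted p = 0.350) and 0.55 ± 0.17 against weight-matched (adjusted p = 0.173). Tat, the tyrosine aminotransferase that starts the pathway and a textbook glucocorticoid target, was at 2354 ± 796 CPM in vehicle, 1945 ± 655 in weight-matched and 1798 ± 400 in CagriSema livers (adjusted p = 0.424 for weight-matched against vehicle). Hpd and Fah, which act before and after Hgd, were not called either: Hpd was at 1761 ± 394, 1665 ± 247 and 1524 ± 351 CPM, and Fah at 479 ± 89.0, 438 ± 22.8 and 415 ± 32.7 CPM.

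In serine and glycine breakdown 4 of 7 members were called lower after food restriction, beside 4.53% of all genes tested. The calls of Gldc and Amt among them were lost in several other fits, given below. Sds deaminates serine to pyruvate, a route from amino acids to glucose. Its lowest, median and highest levels were 449, 841 and 2185 CPM in vehicle, 146, 303 and 596 CPM in weight-matched, and 44.3, 349 and 573 CPM in CagriSema livers. Of the weight-matched libraries 7 of 8 lay below the lowest vehicle library, as did 5 of 7 CagriSema libraries. Sds fell by 1.77 ± 0.38 after food restriction (3.41-fold lower, adjusted p = 0.00732). Against vehicle the CagriSema difference was nearly as large, -1.65 ± 0.40, and missed the threshold (adjusted p = 0.0671). DESeq2 called that CagriSema difference (adjusted p = 0.00365). Among 15 fits that left out 1 library each, only the fit without vehicle library 7 called it (adjusted p = 0.0396). With the 2 groups fitted alone it was not called (adjusted p = 0.194). Sds was the member with the largest fitted difference from vehicle in both treated groups.

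Agxt, which detoxifies glyoxylate using alanine, ranged over 88.7, 112 and 289 CPM (lowest, median and highest) in vehicle, 46.2, 59.9 and 92.1 CPM in weight-matched, and 68.0, 74.0 and 123 CPM in CagriSema livers. Only 1 weight-matched library reached the vehicle range. Agxt fell by 1.21 ± 0.22 (2.31-fold lower, adjusted p = 0.00164) after food restriction and by less without vehicle libraries 4 and 6 (-0.88, adjusted p = 0.00554), and the CagriSema difference was -0.69 ± 0.22 (adjusted p = 0.154). Gldc and Amt are the decarboxylase and the aminomethyltransferase of the glycine cleavage system. Gldc was at 156 ± 52.3 CPM in vehicle, 93.9 ± 19.8 in weight-matched and 132 ± 47.4 in CagriSema livers, a fall of 0.74 ± 0.21 after food restriction (adjusted p = 0.0389). Amt was at 51.2 ± 3.83, 43.4 ± 4.95 and 48.6 ± 1.98 CPM, a fall of 0.24 ± 0.07 (1.18-fold, adjusted p = 0.0372) with 7 of 8 weight-matched libraries below the lowest vehicle one. Both calls of the glycine cleavage system were lost without vehicle libraries 4 and 6 (adjusted p = 0.0937 and 0.0614). When libraries were left out singly, Gldc kept its call only without vehicle 5, 7 or 8 or weight-matched 32, with an adjusted p of up to 0.0776, and Amt only without vehicle 1, 3, 4, 7 or 8 or weight-matched 32, with an adjusted p of up to 0.0770.

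Remaining members of this role were not called. Sdsl, a serine dehydratase-like gene, was at 37.5 ± 22.5, 24.1 ± 3.31 and 23.7 ± 4.41 CPM in vehicle, weight-matched and CagriSema livers (adjusted p = 0.0724 for weight-matched against vehicle). Dmgdh, the dimethylglycine dehydrogenase, was at 439 ± 96.6, 333 ± 61.0 and 358 ± 72.4 CPM (adjusted p = 0.110). Sardh, which acts on sarcosine in the step after it, was at 408 ± 78.6, 438 ± 35.9 and 433 ± 42.8 CPM. Its medians were 435, 436 and 417 CPM, and the vehicle mean included a lowest value of 241 CPM.

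**Figure D2:**
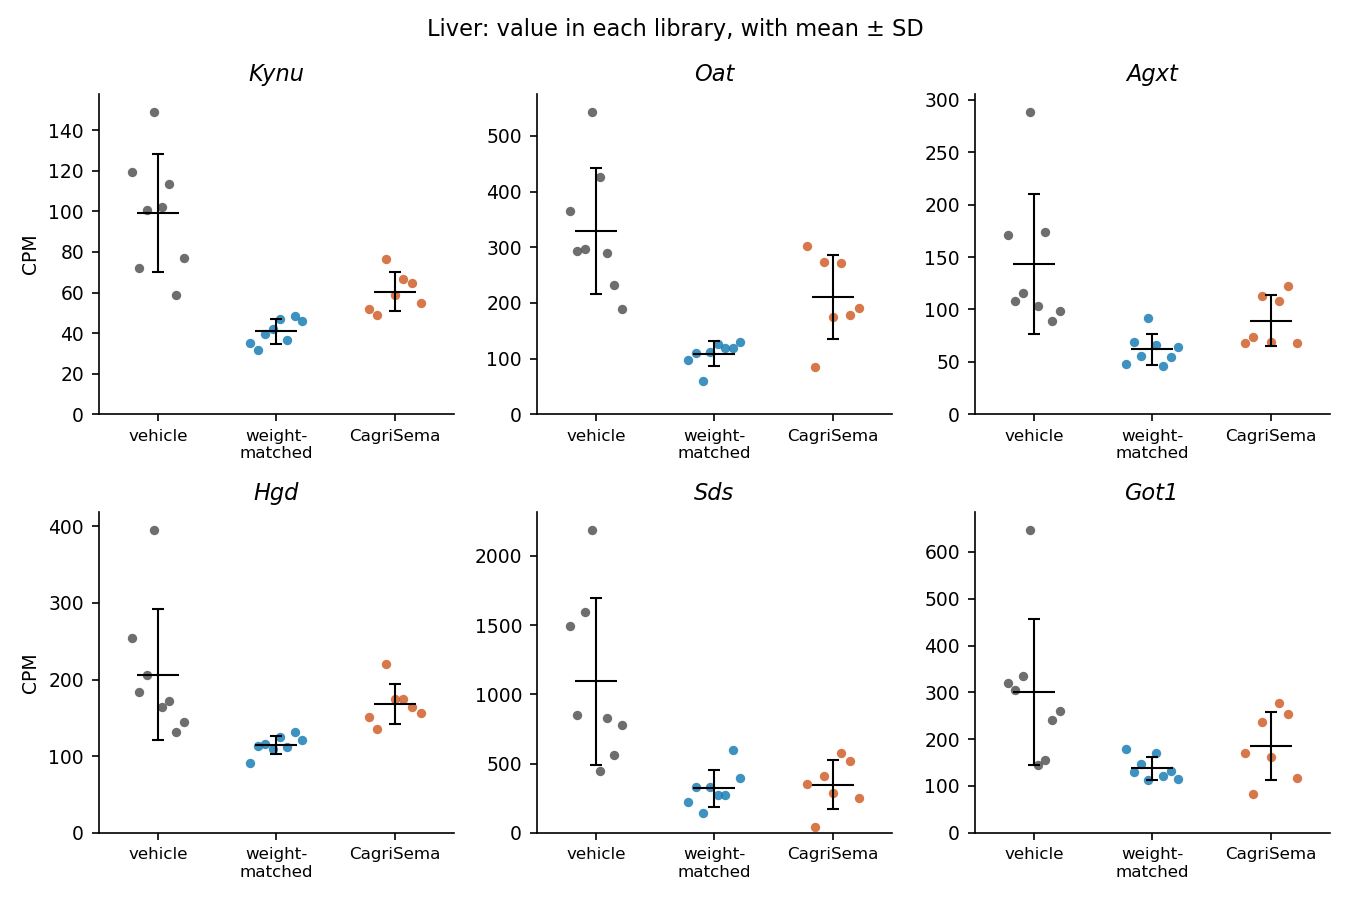
CPM (vertical axis, from 0) of Kynu, Oat, Agxt, Hgd, Sds and Got1 in each liver library by treatment; points are libraries and bars are the mean ± SD (n = 8, 8 and 7). Weight-matched points of Kynu, Oat and Hgd lie below every vehicle point, and the highest vehicle points of Agxt, Hgd and Got1 are library 4, at 289, 395 and 647 CPM.

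The called aminotransferases Oat and Agxt are given with other roles above. Of the 5 members grouped as aminotransferases of alanine and aspartate, only Got1, the cytosolic aspartate aminotransferase, was called. Its lowest, median and highest levels were 145, 283 and 647 CPM in vehicle, 112, 130 and 178 CPM in weight-matched, and 83.9, 170 and 278 CPM in CagriSema livers. The groups overlapped, with 5 of 8 weight-matched libraries below the lowest vehicle one. Got1 fell by 1.12 ± 0.26 after food restriction (2.18-fold lower, adjusted p = 0.0107), and the CagriSema difference was -0.69 ± 0.27 (adjusted p = 0.201). Got2, its mitochondrial partner, was at 543 ± 36.9, 528 ± 20.3 and 491 ± 36.5 CPM. The alanine aminotransferases Gpt and Gpt2 had means that moved in opposite directions without being called: Gpt was at 237 ± 97.9, 205 ± 62.7 and 197 ± 48.7 CPM, and Gpt2 at 295 ± 118, 368 ± 54.4 and 400 ± 47.5 CPM. Agxt2 was at 207 ± 45.5, 199 ± 48.6 and 175 ± 33.2 CPM.

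Around glutamate, 1 member was higher and 1 was lower after food restriction. Glud1, the glutamate dehydrogenase that releases ammonia in the mitochondrion, rose from 885 ± 96.8 CPM in vehicle to 1138 ± 224 in weight-matched livers (0.36 ± 0.11, adjusted p = 0.0412), and 4 of 8 weight-matched libraries lay above the highest vehicle one. In CagriSema livers it was at 981 ± 109 CPM. The call was lost without vehicle libraries 4 and 6 (0.32, adjusted p = 0.0731) and, singly, without vehicle 1, 5, 6 or 8 or weight-matched 25, 26, 27 or 29, with an adjusted p of up to 0.0942. Gls2, the liver glutaminase that frees ammonia from glutamine beside the urea cycle, had lowest, median and highest levels of 360, 468 and 597 CPM in vehicle, 318, 345 and 392 CPM in weight-matched, and 233, 381 and 466 CPM in CagriSema livers. Gls2 fell by 0.47 ± 0.12 after food restriction (1.38-fold lower, adjusted p = 0.0224), with 5 of 8 libraries below the lowest vehicle one, and differed by -0.40 ± 0.13 after CagriSema (adjusted p = 0.141). Glul, the glutamine synthetase of pericentral hepatocytes, was at 259 ± 99.1, 331 ± 36 and 362 ± 155 CPM and was not called (0.36 ± 0.25, adjusted p = 0.393 for weight-matched against vehicle).

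In the urea cycle 2 of 6 members were lower after food restriction, and these are the enzymes that join aspartate to citrulline and split the product. Ass1 (ENSRNOG00000008837), argininosuccinate synthase, had lowest, median and highest levels of 1941, 2631 and 5296 CPM in vehicle, 1329, 1645 and 2313 CPM in weight-matched, and 1088, 1985 and 2865 CPM in CagriSema livers. Asl, argininosuccinate lyase, had 343, 467 and 931 CPM in vehicle, 264, 324 and 381 CPM in weight-matched, and 244, 356 and 521 CPM in CagriSema livers. For each of them 6 of 8 weight-matched libraries lay below the lowest vehicle library, and the highest vehicle value was library 4. Ass1 fell by 0.68 ± 0.20 (1.60-fold lower, adjusted p = 0.0370) and Asl by 0.63 ± 0.17 (1.55-fold lower, adjusted p = 0.0284). Without vehicle libraries 4 and 6 neither passed (Ass1 -0.45, adjusted p = 0.113; Asl -0.40, adjusted p = 0.0695). Leaving out libraries singly, Asl lost its call without vehicle 6 or weight-matched 26 (adjusted p of up to 0.0564), and Ass1 without vehicle 4 or 6 or weight-matched 26, 27, 29, 30, 31 or 32 (adjusted p of up to 0.0693). The CagriSema differences from vehicle were -0.48 ± 0.20 for Ass1 (adjusted p = 0.234) and -0.43 ± 0.18 for Asl (adjusted p = 0.221).

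The other 4 urea cycle members were not called in any liver comparison. Cps1 (ENSRNOG00000013704), the carbamoyl phosphate synthetase that commits ammonia to the cycle, was at 5217 ± 1191 CPM in vehicle, 5366 ± 557 in weight-matched and 5678 ± 1161 in CagriSema livers, with differences from vehicle of 0.04 ± 0.13 (adjusted p = 0.872) and 0.12 ± 0.14 (adjusted p = 0.651). Arg1, the arginase that yields urea, was at 1254 ± 542, 1216 ± 125 and 1218 ± 145 CPM. Nags, which makes the activator of Cps1, was at 109 ± 17, 106 ± 17.1 and 111 ± 8.79 CPM. Without vehicle libraries 4 and 6 the weight-matched differences of Cps1 (-0.07), Arg1 (0.22) and Nags (0.07) and the CagriSema difference of Arg1 (0.23) changed sign and still did not pass the test. Otc (ENSRNOG00000003370), which forms citrulline, had similar vehicle and weight-matched levels and a lower CagriSema mean: 347, 449 and 534 CPM (lowest, median and highest) in vehicle, 418, 460 and 536 CPM in weight-matched, and 279, 383 and 444 CPM in CagriSema livers. Of the CagriSema libraries 5 of 7 lay below the lowest weight-matched one, for a difference of -0.32 ± 0.10 (adjusted p = 0.173). Together the 6 genes made up 0.960 ± 0.126% of all liver counts in vehicle, 0.943 ± 0.0849% in weight-matched and 1.02 ± 0.186% in CagriSema livers, differences smaller than the spread between libraries.

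Histidine breakdown, branched-chain amino acid breakdown and the lysine enzyme Aass gave no call after food restriction. Hal, the histidine ammonia-lyase, came closest, at 297 ± 73.8 CPM in vehicle, 208 ± 33.4 in weight-matched and 198 ± 57.8 in CagriSema livers (-0.52 ± 0.16, adjusted p = 0.0563, for weight-matched and -0.59 ± 0.17, adjusted p = 0.120, for CagriSema against vehicle). Ftcd, which passes the formimino group to folate, had a different order of means, with 468 ± 147 CPM in vehicle, 465 ± 22.9 in weight-matched and 340 ± 57.5 in CagriSema livers, and 6 of 7 CagriSema libraries lay below the lowest weight-matched one (-0.45 ± 0.14, adjusted p = 0.184, and -0.46 ± 0.14, adjusted p = 0.138, against vehicle). Uroc1 was at 575 ± 108, 573 ± 27.1 and 520 ± 75.7 CPM, and Amdhd1 at 55.8 ± 26, 39.7 ± 18.6 and 29 ± 13.2 CPM. The 7 branched-chain members (Bcat2, Bckdha, Bckdhb, Bckdk, Ivd, Mccc1 and Mccc2) had log2 differences from -0.31 to 0.24 after food restriction. Within them Ivd, the isovaleryl-CoA dehydrogenase of leucine breakdown, was at 200 ± 16.2, 192 ± 10.9 and 166 ± 17.2 CPM, with 4 of 7 CagriSema libraries below the lowest vehicle one (-0.26 ± 0.07 against vehicle, adjusted p = 0.0995, and -0.21 ± 0.07 against weight-matched, adjusted p = 0.231). Bckdha, a subunit of the branched-chain keto acid dehydrogenase, was at 180 ± 30.3, 188 ± 9.25 and 159 ± 8.59 CPM, and all 7 CagriSema libraries lay below all 8 weight-matched ones (-0.24 ± 0.08, adjusted p = 0.236). Aass was at 214 ± 49.3, 216 ± 69.7 and 183 ± 56.6 CPM.

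**Figure D3:**
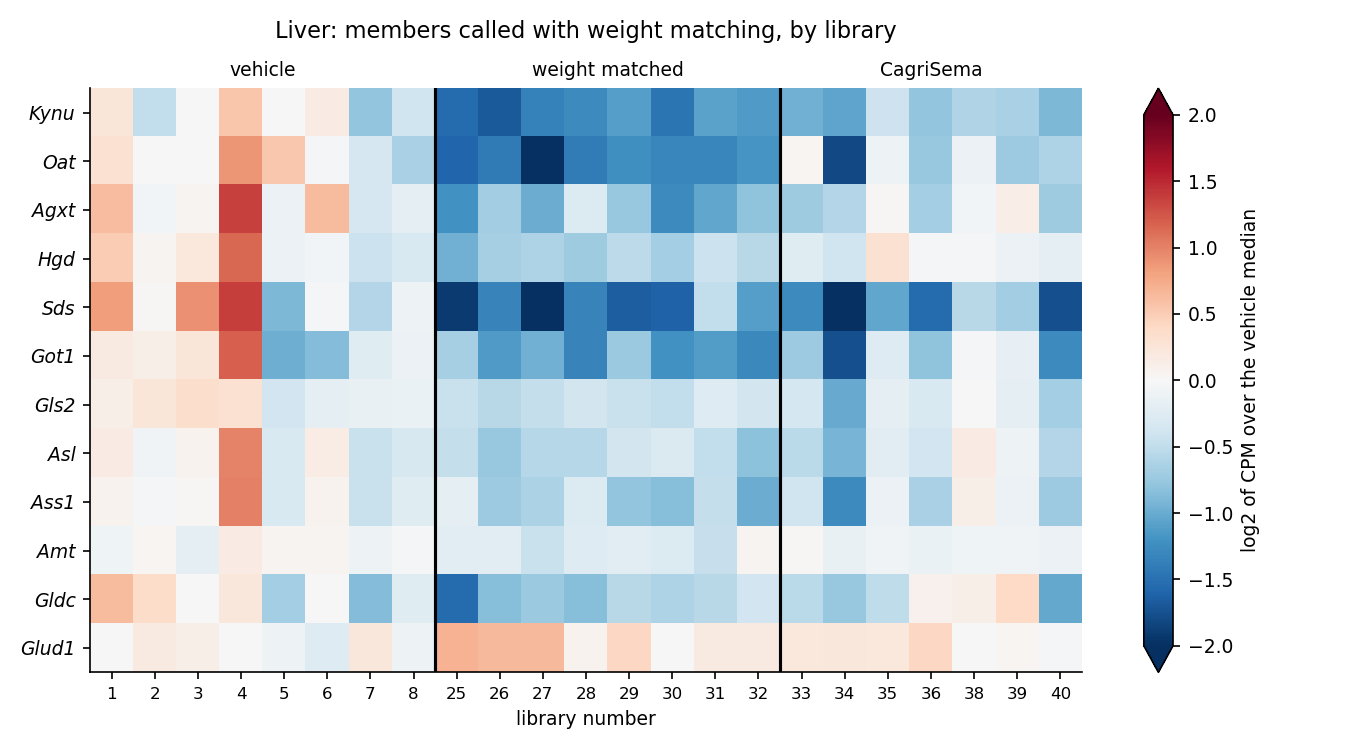
Log2 of CPM over the vehicle median (colour, from -2 to 2) for the 12 members called after food restriction (rows) in each of the 23 liver libraries (columns, by treatment). Weight-matched columns are mostly blue for 11 rows and mostly red for Glud1, CagriSema columns vary between libraries, and vehicle library 4 is the reddest vehicle column for Ass1, Asl, Got1, Hgd and Agxt.

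Between CagriSema and weight-matched livers, 21 members were positive and 22 negative, with a median of -0.02. Of the members, 3 had ranges that did not overlap, Kynu and Hgd with CagriSema higher and Bckdha with CagriSema lower, and none of them was called. These 3 are 6.98% of the members, beside 1.27% of all genes tested. The fit estimates the spread over all 3 groups, vehicle included, and the count called changed with the libraries that entered it. Without vehicle libraries 4 and 6 there were 8 calls: Oat, Kynu and Hgd were higher in CagriSema livers, and Bckdha, Ivd, Otc, Kmo and Ftcd were lower (adjusted p from 0.0112 for Hgd to 0.0496 for Ivd). In that fit 4.62% of all genes were called. With the 2 groups fitted alone there were 6 calls (Bckdha, Ftcd, Hgd, Kmo, Kynu and Oat) and 4.85% of all genes. The genes higher with CagriSema here are 3 of those that fell with food restriction, a choice fixed in part by the shared weight-matched libraries. After food restriction the fit without libraries 4 and 6 called 9 members, 7 of them among the 12, beside 8.16% of all genes.

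Several liver cell markers moved with these results. Summed pericentral markers (11 genes) ran from 2235 to 5922 CPM in vehicle, from 4694 to 6454 CPM in weight-matched and from 2333 to 6444 CPM in CagriSema livers, and 2 of 9 tested, Cyp7a1 and Cyp2e1, were called higher after food restriction. Summed periportal markers (10 genes) ran from 9712 to 14879, from 10984 to 13486 and from 8914 to 11076 CPM, with 1 lower call after food restriction (Aldh1b1) and 1 after CagriSema (Pck1). Oat and Glul belong to the pericentral zone by textbook knowledge, and of these Oat fell after food restriction while Glul was not called. Summed red blood cell markers (4 genes) ran from 129 to 756, from 63.4 to 140 and from 126 to 175 CPM, and 3 of 4 (Hba-a2, Hbb and Alas2) were lower after food restriction. Summed Kupffer cell markers (11 genes) ran from 102 to 738, from 205 to 556 and from 413 to 540 CPM with no call. Of the hepatocyte markers, Serpina1 and Apoa1 were lower after food restriction and Alb after CagriSema, and of the stellate cell and fibroblast markers Pdgfra was higher in both treated groups. The endothelial, cholangiocyte, lymphocyte and adipocyte lists gave no call in liver. The part of these shifts in the members' values was not tested, and in bulk tissue fewer cells of a type and less RNA per cell cannot be told apart.

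In quadriceps 21 of the 43 members had enough counts to be tested, and 22 did not. After food restriction 2 of the 21 were called, both higher (9.52%), beside 2.29% of all genes tested (1.11% higher). The same 9.52% had an unadjusted p under 0.05, beside 19.2% of all genes. Of the 21, 10 were positive and 11 negative, with a median log2 difference of -0.008. Glul, which makes glutamine for export from muscle, had lowest, median and highest levels of 612, 1026 and 1270 CPM in vehicle, 1232, 1591 and 2444 CPM in weight-matched, and 995, 1257 and 1517 CPM in CagriSema muscle. All but 1 of the weight-matched libraries lay above the highest vehicle one. Glul rose by 0.79 ± 0.14 on the log2 scale (1.73-fold, adjusted p = 0.00975), and the call held in all 15 fits that left out 1 library. It was lost when the 2 groups were fitted alone (adjusted p = 0.0568). The CagriSema difference from vehicle was 0.42 ± 0.14 (adjusted p = 0.321), and from weight-matched it was -0.37 ± 0.14 (adjusted p = 0.525).

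Oat was the other call in quadriceps, and there it was higher after food restriction. Its lowest, median and highest levels were 83.9, 101 and 117 CPM in vehicle, 116, 124 and 134 CPM in weight-matched, and 106, 117 and 126 CPM in CagriSema muscle. Weight-matched muscle exceeded the highest vehicle library in 7 of 8 libraries, for a rise of 0.29 ± 0.07 (1.22-fold, adjusted p = 0.0307). The call was lost without vehicle library 2, 5 or 8 or weight-matched library 28 or 30 (adjusted p of up to 0.0825), without vehicle libraries 2 and 5 together (0.21, adjusted p = 0.152) and with the 2 groups fitted alone (adjusted p = 0.109). The CagriSema difference was 0.20 ± 0.07 (adjusted p = 0.315). No member was called by edgeR between CagriSema and vehicle (3 at an unadjusted p under 0.05, 14.3% beside 10.3% of all genes) or between CagriSema and weight-matched muscle (1 at an unadjusted p under 0.05, 4.76% beside 7.65% of all genes), where 0.0321% and 0.128% of all genes were called.

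**Figure D4:**
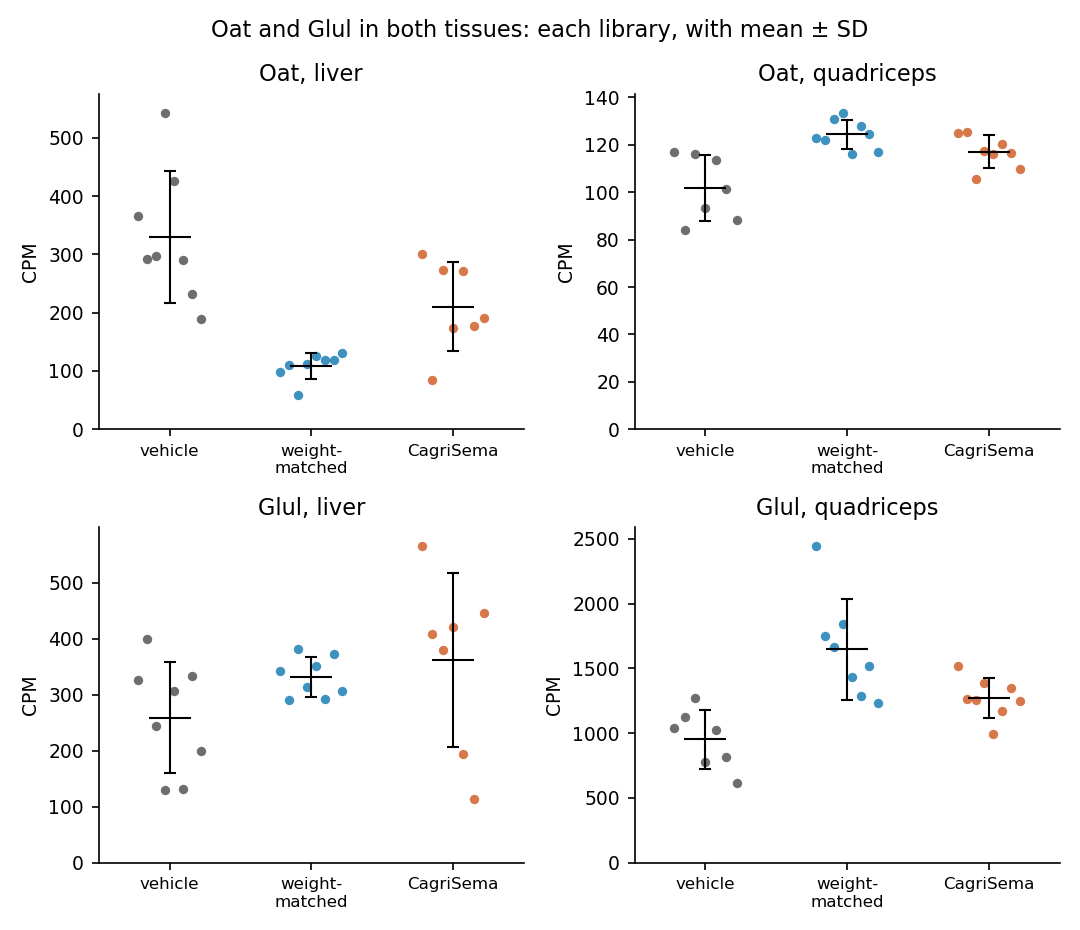
CPM (vertical axis, from 0) of Oat and Glul in each library of liver and quadriceps by treatment; points are libraries and bars are the mean ± SD. Oat is lower in weight-matched than in vehicle liver (109 against 330 CPM) and higher in weight-matched than in vehicle quadriceps (124 against 102 CPM), and Glul is highest in weight-matched quadriceps.

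The tested quadriceps members that were not called included the branched-chain enzymes, for which muscle is the known starting tissue. Bcat2, the mitochondrial branched-chain aminotransferase, was at 106 ± 26.4 CPM in vehicle (n = 7), 116 ± 27.3 in weight-matched (n = 8) and 116 ± 22.8 in CagriSema muscle (n = 8). Bckdk, the kinase that switches the keto acid dehydrogenase off, was at 190 ± 27.4, 203 ± 18.0 and 206 ± 14.0 CPM. The dehydrogenase subunits kept near-level means, with Bckdha at 143 ± 33.1, 136 ± 19.3 and 146 ± 13.0 CPM and Bckdhb at 125 ± 38.8, 118 ± 19.9 and 126 ± 9.56 CPM. Ivd was at 203 ± 37, 193 ± 24.8 and 220 ± 23.2 CPM, Mccc1 at 44.7 ± 8.97, 49.6 ± 4.98 and 53.4 ± 7.17 CPM, and Mccc2 at 90.3 ± 18.5, 97.6 ± 4.68 and 96.8 ± 12.2 CPM. Among aminotransferases, Got1 was at 584 ± 203, 575 ± 107 and 638 ± 113 CPM and Got2 at 1109 ± 175, 1104 ± 84.1 and 1165 ± 104 CPM. Gpt was at 107 ± 34.6, 103 ± 13.5 and 117 ± 16.5 CPM, Gpt2 at 112 ± 50.9, 145 ± 29.4 and 122 ± 27.9 CPM, and Glud1 at 256 ± 32.3, 275 ± 26.2 and 281 ± 19.9 CPM. None of these differences was called. After food restriction the smallest p-values among the members not called were those of Gpt2 (0.37 ± 0.23, adjusted p = 0.397), Mccc1 (0.15 ± 0.11, adjusted p = 0.466), Sardh (-0.20 ± 0.14, adjusted p = 0.484) and Glud1 (0.10 ± 0.08, adjusted p = 0.486). After CagriSema they were those of Mccc1 (0.26 ± 0.11, adjusted p = 0.399), Glud1 (0.14 ± 0.08, adjusted p = 0.545), Bckdk (0.11 ± 0.08, adjusted p = 0.637) and Ivd (0.12 ± 0.10, adjusted p = 0.703), beside Oat and Glul above. Of the 21 tested, 17 were positive against vehicle after CagriSema and 10 after food restriction. Between CagriSema and weight-matched muscle the smallest p-values after Glul were those of Ivd (0.19 ± 0.10, adjusted p = 0.661), Hpd (0.72 ± 0.44, adjusted p = 0.732), Oat (-0.09 ± 0.07, adjusted p = 0.790), Gpt (0.18 ± 0.14, adjusted p = 0.810) and Asl (0.16 ± 0.13, adjusted p = 0.815). Of the urea cycle only Asl (8.05 ± 1.66, 7.18 ± 1.16 and 8.04 ± 1.54 CPM) and Ass1 (1.34 ± 1.15, 1.10 ± 0.507 and 1.09 ± 0.498 CPM) could be tested in muscle. Against vehicle Asl differed by -0.16 ± 0.14 (adjusted p = 0.558) and Ass1 by -0.25 ± 0.43 (adjusted p = 0.802) after food restriction, and neither was called there or after CagriSema. Fibroblast collagens Col3a1 and Col1a1 were lower and the fibre marker Tnni2 was higher in weight-matched than in vehicle muscle. The part of these markers in the members' values was not tested.

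Whether a treatment difference itself differed between the tissues was tested in a fit of all 46 libraries. For weight-matched against vehicle 3 of the 43 members were called (6.98%), beside 2.76% of all 14110 genes tested. An unadjusted p under 0.05 was found for 9 members, 20.9% beside 18.6% of all genes. Oat had the clearest value, -1.88 ± 0.25 (liver minus quadriceps, adjusted p = 1.62e-05), as it fell in liver and rose in quadriceps, and it was called in all 36 other fits. Got1 differed by -1.10 ± 0.32 (adjusted p = 0.0497), and among 31 fits without 1 library it was called in 8, those without liver vehicle 5, 6, 7 or 8, liver weight-matched 25 or 29, quadriceps vehicle 8 or quadriceps weight-matched 28, with an adjusted p of up to 0.0936. Cps1 was called at 4.33 (adjusted p = 0.0486), but quadriceps held 54 Cps1 counts in all and 31 of them were in vehicle library 2. Without that library the difference was 0.92 (adjusted p = 0.780). Its call held in 11 of 31 fits, those without liver vehicle 1, 2, 5 or 7, liver weight-matched 32 or quadriceps vehicle 1, 4, 5, 6, 7 or 8. For CagriSema against vehicle no member was called by edgeR beside 0.149% of all genes. At an unadjusted p under 0.05 there were 4 members, 9.30% beside 15% of all genes. DESeq2 called 1 member and 1.15% of all genes. That member was Ftcd, which held 16 quadriceps counts in all, with 14 of 23 libraries at 0. The smaller p-values included Oat at -0.84 ± 0.25 (adjusted p = 0.117), Ivd at -0.38 ± 0.13 (adjusted p = 0.170) and Got1 at -0.82 ± 0.33 (adjusted p = 0.232). For CagriSema against weight-matched none was called by edgeR beside 0.0213% of all genes. At an unadjusted p under 0.05 there were 5 members, 11.6% beside 7.31% of all genes, and DESeq2 called 1 member and 0.502% of all genes. The smaller p-values included Ivd at -0.40 ± 0.13 (adjusted p = 0.268) and Oat at 1.03 ± 0.24 (adjusted p = 0.0807), the latter called without liver CagriSema library 34 (1.17, adjusted p = 0.0236).

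In vehicle rats 39 of the 43 members differed between liver and quadriceps (34 higher in liver and 5 higher in quadriceps), beside 83.4% of all genes tested, so most of the transcriptome differed too. The 5 that were higher in muscle were Bcat2 (-2.83 ± 0.16, 7.11-fold), Bckdk (-2.79 ± 0.11, 6.90-fold), Glul (-1.94 ± 0.23, 3.83-fold), Got2 (-1.09 ± 0.08, 2.12-fold) and Got1 (-1.01 ± 0.23, 2.02-fold). By transcript level, the aminotransferase genes for branched-chain amino acids and aspartate thus lay on the muscle side, together with glutamine synthetase. Enzyme activity was not measured. Scaling across 2 tissues assumes that most genes are alike, and 83.4% were called. This limits what the smaller differences, such as those of Got1 and Got2, can show. Mccc1, Mccc2, Bckdhb and Ivd were not called, with log2 differences from -0.23 to 0.19. Without the 4 vehicle libraries that stood apart, liver 4 and 6 and quadriceps 2 and 5, Bckdhb (-0.55, adjusted p = 0.00302) and Ivd (-0.24, adjusted p = 0.0135) were called higher in muscle, and with the replicate block Bckdhb was called too (-0.22, adjusted p = 0.0432). Among the 5 members called higher in muscle by the reported fit, the largest adjusted p was 9.8e-05, for Got1. On the liver side, Bckdha was 0.27 ± 0.10 higher (adjusted p = 0.0153), a call that was lost without those 4 libraries (0.01, adjusted p = 0.938). Gpt (1.08 ± 0.21), Gpt2 (1.34 ± 0.24), Oat (1.63 ± 0.18) and Glud1 (1.73 ± 0.11) were moderately higher in liver, with adjusted p-values of at most 8.83e-06. Amt (4.03 ± 0.12), Asl (5.90 ± 0.20), Sardh (7.08 ± 0.15), Gls2 (8.02 ± 0.20), Hpd (8.12 ± 0.42), Fah (8.55 ± 0.15) and Ass1 (11.01 ± 0.41) were far higher, with adjusted p-values of at most 2.22e-22. The remaining 22 liver-side members had too few muscle counts to be tested within muscle, and no fold is given for them. Amdhd1 had 0 counts in all 23 quadriceps libraries, and across the 22 members not tested in muscle the highest value in any library was 2.23 CPM, for Cps1 in vehicle library 2. All members together made up 2.36 ± 0.275% of liver counts in vehicle, 2.26 ± 0.150% in weight-matched and 2.33 ± 0.338% in CagriSema rats, and 0.425 ± 0.0386%, 0.473 ± 0.0294% and 0.474 ± 0.0195% of quadriceps counts.

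**Figure D5:**
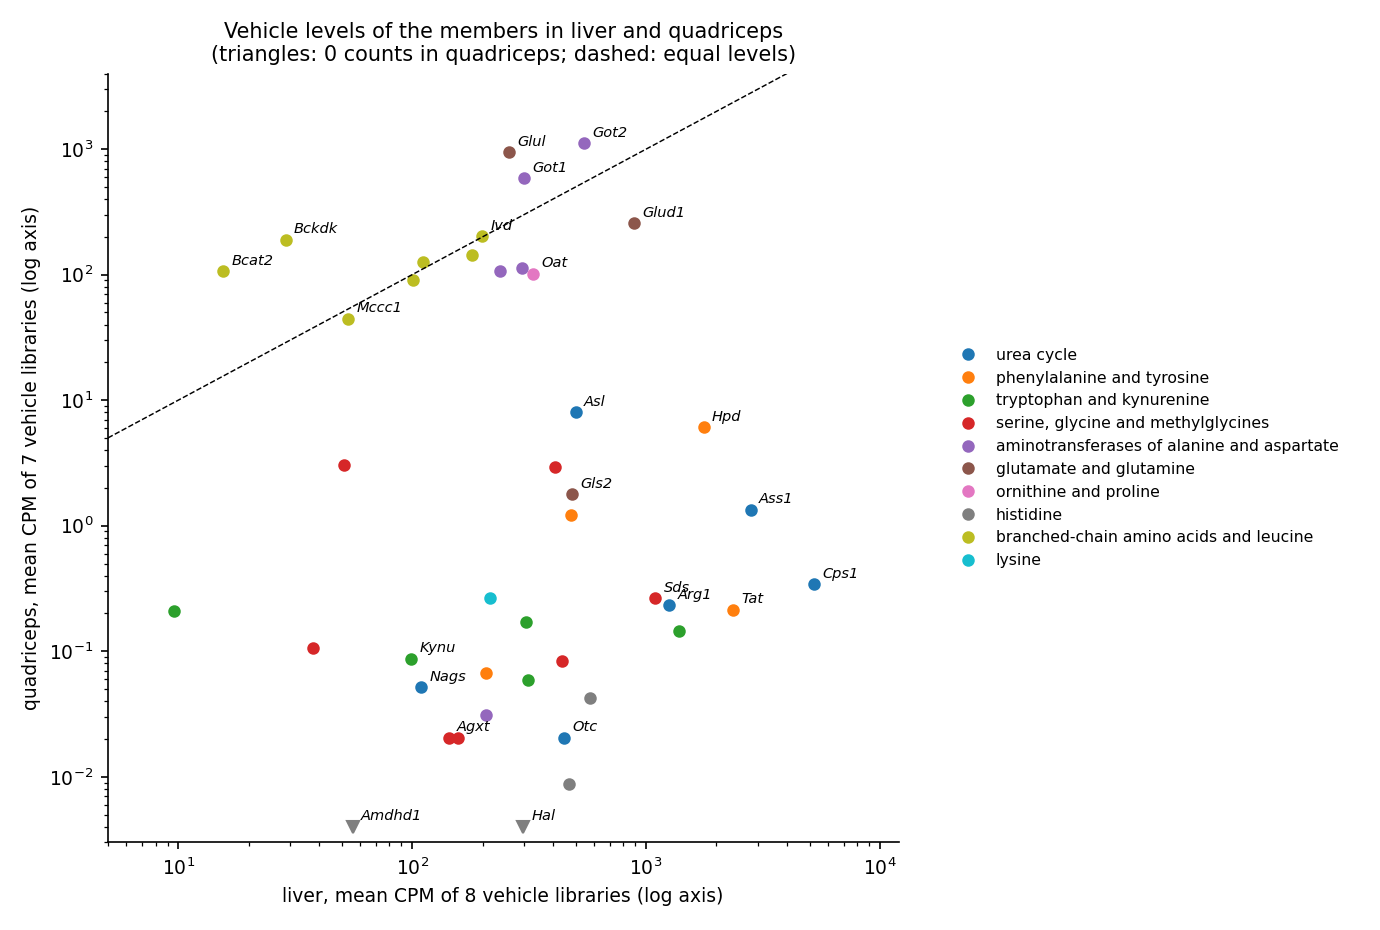
Mean CPM of each member in vehicle quadriceps (vertical) against vehicle liver (horizontal), both axes logarithmic and each tissue scaled separately; triangles mark members with 0 counts in every vehicle quadriceps library (Amdhd1 and Hal). Bcat2, Bckdk, Glul, Got2 and Got1 lie above the line of equal levels, and most urea cycle, histidine and aromatic amino acid members lie far below it. Bckdhb (125 CPM in quadriceps, 111 in liver) and Ivd (203 and 200 CPM) also lie slightly above the line, and the reported fit did not call them.

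A wider list held 51 genes of the same pathways that are not members, of which 49 were matched. Among 45 tested in liver, 1 was called higher after food restriction (Afmid, above), beside 7.02% of all genes. By edgeR 0 were called after CagriSema, beside 0.354% of all genes. In CagriSema against weight-matched livers 1 was called lower, beside 0.535% of all genes. It was Gcdh, the glutaryl-CoA dehydrogenase of lysine and tryptophan breakdown (-0.42 ± 0.08, adjusted p = 0.0123). The median log2 differences of the 45 were -0.15, -0.22 and -0.07 in these 3 comparisons. Of 37 tested in quadriceps 0 were called in each comparison, beside 2.29%, 0.0321% and 0.128% of all genes in the same order. A further list held 13 matched hormone receptors and transcription factors that are known regulators of these liver genes (Gcgr, Cebpa, Hnf4a, Ppara and others). Of these, 0 of 13 tested in liver and 0 of 9 tested in quadriceps were called in any comparison, beside the same shares of all genes.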

How the data were processed

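Bulk RNA was measured in 46 rat libraries of liver and quadriceps. The values are whole-number read counts per gene, as deposited by the authors. The labels' protocols name the RNeasy Minikit for extraction and the Twist UMI system for libraries, and the tools listed in the submitters' processing notes are STAR 2.5.2b and fastp 0.23.1. For the genome build, annotation, counting program and UMI handling the entry is: not given in the sources used here. The table has 1 further count column that matched no sample, and it was not used.

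Groups came from the labels. Counts were scaled by TMM, filtered with filterByExpr and fitted with edgeR 4.0.16 (limma 3.58.1, R 4.3.3) by the robust quasi-likelihood F test. Each tissue had a fit over its 3 groups, and a fit over all 46 libraries tested differences between tissues. Adjustment was Benjamini-Hochberg over all genes in a fit, at a threshold of 0.05. SE is the log2 fold change divided by the square root of F. The procedure was tested on simulated data. Alternatives were DESeq2 1.42.0, RLE scaling, no filter on low counts, the 2 groups alone, a replicate block, each library left out in turn and, chosen after seeing the data, libraries that stood apart left out together.

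All called members were named, then members with the lowest p up to 6 per comparison, the urea cycle members, and the rest by role. The members and lists were chosen with earlier results of these data known.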

Additional observations from a re-analysis of the deposited data

Results flagged for a closer look

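Single libraries stood far from the rest of their group for 7 of 42 groups examined (14 tissue and member combinations in 3 treatments), by Dixon's gap-to-range ratio. For a single group, chance alone gives about 1 in 20. The same libraries recur across members, so the groups are not independent. That rate therefore gives no expected number for the 7 flagged groups. Liver vehicle library 4 was the highest of its group in 5 of them: Asl at 931 CPM with the next library at 522, Hgd at 395 with the next at 254, Ass1 at 5296 with the next at 2775, Got1 at 647 with the next at 336, and Agxt at 289 with the next at 174. In weight-matched liver, library 27 was the lowest for Oat at 59.4 CPM with the next at 97.8, and library 32 was the highest for Amt at 53.4 CPM with the next at 44.4.

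The difference between weight-matched and vehicle rats itself differed between liver and quadriceps for 3 members in edgeR's quasi-likelihood test of the interaction: Oat at -1.88 (adjusted p = 1.62e-05), Cps1 at 4.33 (adjusted p = 0.0486) and Got1 at -1.10 (adjusted p = 0.0497) on the log2 scale. Without the 4 vehicle libraries that stood apart Cps1 was at 1.01 (adjusted p = 0.820) and Got1 at -0.75 (adjusted p = 0.195).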

How the results depend on the processing

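No called value changed sign under the alternatives run. Differences that were not called changed sign in 20 cases. Leaving out vehicle libraries 4 and 6 of liver turned Arg1 (0.22 after food restriction, 0.23 after CagriSema), Cps1 (-0.07 after food restriction) and Nags (0.07 after food restriction), leaving out the 4 libraries that stood apart turned Mccc2 between tissues (-0.09), and the other cases left out a single library. Of the 12 members called in liver after food restriction, 7 (Agxt, Gls2, Got1, Hgd, Kynu, Oat and Sds) were called in all 21 other fits, and 5 (Amt, Asl, Ass1, Gldc and Glud1) were not. Counts of called members in liver for CagriSema against vehicle (1 by the reported fit) were 0 with no filter on low counts and 4 with DESeq2. They were 0 with the 2 groups alone and 0 without vehicle libraries 4 and 6. The share of all genes that DESeq2 called there is not given here, so the 4 cannot be set against it. For CagriSema against weight-matched livers (0) the counts were 2 with DESeq2, 6 with the 2 groups alone and 8 without vehicle libraries 4 and 6. For the tissue difference after food restriction (3) they were 1 with no filter and 1 without the 4 libraries that stood apart. For the tissue difference after CagriSema DESeq2 called 1 (Ftcd). Quadriceps held only 16 Ftcd counts in all, with 14 of 23 libraries at 0, so that call rests on few muscle counts. For the tissue difference in CagriSema against weight-matched, DESeq2 called 1 and leaving out the 4 libraries gave 1 (both Oat). In quadriceps after food restriction (2) the count was 0 with the 2 groups alone and 1 without vehicle libraries 2 and 5. The cause of these changes was not tested.

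Leaving out 1 library at a time gave 7 to 14 members in liver after food restriction (7 without vehicle 6 or weight-matched 26), 0 to 3 for CagriSema against vehicle (3 without vehicle 7), and 0 to 1 for CagriSema against weight-matched (1 without CagriSema 34). The tissue difference gave 1 to 3 after food restriction and 0 to 1 for CagriSema against weight-matched, and quadriceps gave 1 to 2 after food restriction. With the library number as a replicate block, the tissue difference after food restriction called 1 member (Oat), and the vehicle comparison of tissues called 40 in place of 39. Deviations of same-numbered libraries of the 2 tissues correlated at a median of 0.0942 (-0.00755 to 0.252, 10 of 22 over 0.1), and 19 of 22 correlated best with their own number, a hint from the data and not the design. Depth limits what can be said of the 22 members with too few muscle counts.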

Other observations

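Muscle vehicle library 2 held more liver-type transcripts than the other quadriceps libraries. It had 116 counts over the 22 members not tested in muscle, where the other libraries had 9 to 36, and albumin (Alb) stood at 30.9 CPM there, at 13.8 CPM in CagriSema library 40, at 10.9 CPM in CagriSema library 39 and at 3.29 CPM or less elsewhere. Among CagriSema livers the members' lowest values were spread unevenly. Library 34 was the lowest of 7 for 18 of the 43 members and library 40 for 17, while library 38 was the highest for 14. In vehicle livers library 5 was the lowest of 8 for 14 members.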
